A study of Sedum plumbizincicola and Sedum alfredii with 13 samples.

Results

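The 53 transcripts described here were chosen because they had opposite organ preferences in a pair of related succulents. Their read counts were at least 2-fold higher in roots than in shoots of Sedum plumbizincicola, and at least 2-fold higher in shoots than in roots of Sedum alfredii. They were selected from 66584 assembled transcript clusters on measured values: mean normalized counts over both doses, with a mean of at least 20 in the higher organ of each species. Of all clusters, 12832 passed that minimum in both species. Sedum plumbizincicola is a hyperaccumulator of cadmium (Cd) and zinc, and the Sedum alfredii plants are described by the submitters as non-hyperaccumulating.

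Metal hyperaccumulating plants take up metal in the root, load it into the xylem and store it in leaf vacuoles, whereas most other plants keep more of it in the root. Organs differ in expression because roots are devoted to uptake of ions and water and shoots to photosynthesis and storage. Genes whose organ of higher expression differs between related species are therefore of interest for how such species divide tasks between root and shoot. The deposited tables give component numbers and no gene names for the clusters (0 were matched to a name), so the known roles of these transcripts cannot be given here and IDs are printed as deposited.

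Both species were sampled as roots and shoots after 3 days with 10 µM CdCl2 or with 0 µM CdCl2, the untreated plants. For Sedum plumbizincicola, roots with Cd, roots untreated, shoots with Cd and shoots untreated were each sequenced as 2 biological replicates in the submitters' words, named A and B. Sedum alfredii had 1 library for each of these, so the replicate error of its values could not be measured. How many plants went into a library, their age and growth medium, and any sequencing batch are not given in the sources used here. Read counts assigned to the transcripts summed to 1260160 to 2403858 per library in Sedum plumbizincicola and 3434922 to 4670429 in Sedum alfredii. These sums are not sequencing depths. The minimum mean of 20 corresponded to between 12.7 and 41.2 assigned reads in a library. With no gene names, organ markers could not be checked. Across the 12832 transcripts above the minimum, the log2 ratio of root to shoot had a Pearson correlation of 0.828 and a Spearman correlation of 0.679 between the species, over transcripts that share the same 12 libraries and are not independent replicates. Both species were measured against the same transcript set.

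Opposite organ preference was uncommon among these transcripts. Of 2206 transcripts with 2-fold higher levels in Sedum plumbizincicola roots than shoots, the 53 made up 2.40%. Root preference in both species was found for 1311 transcripts, shoot preference in both for 2188, and the reverse opposition, higher in Sedum plumbizincicola shoots and Sedum alfredii roots, for 121.

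**Figure D1:**
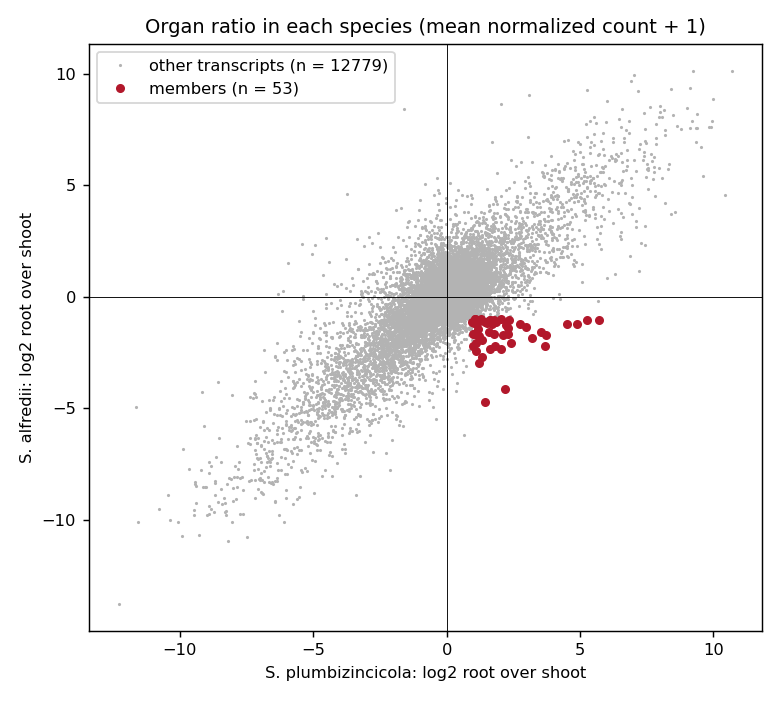
Log2 ratio of root to shoot in Sedum plumbizincicola (horizontal axis) against the same ratio in Sedum alfredii (vertical axis), from mean normalized counts plus 1; each point is 1 of the 12832 transcripts above the minimum. The 53 members (red) lie in the lower right by the rule that chose them, while most other transcripts (grey) follow the diagonal.

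Most members lay close to the limits that chose them. In Sedum plumbizincicola the ratio of root to shoot had a median of 3.11, with a lowest value of 2.01 and a highest finite value of 42.0. In Sedum alfredii the ratio of shoot to root had a median of 2.63 and ranged from 2.01 to 40.2. The highest, that of c42710_g4, rested on 6 root reads with Cd and 1 untreated. The smaller ratio of each member was at most 2.5 in 35 of 53, at least 3 in 13 and at least 4 in 4. Just inside the limit lay c34650_g1, with ratios of 2.5 (root over shoot) in Sedum plumbizincicola and 2.01 (shoot over root) in Sedum alfredii, and c25342_g1, with 2.01 and 2.21 in the same order. Just outside lay c36247_g2 and c39617_g1, whose Sedum alfredii ratios were both 2.00 when rounded and below the limit, beside Sedum plumbizincicola ratios of 4.40 and 3.10. A further count shows how densely the border is filled: 153 transcripts had a smaller ratio from 1.5 to just under 2.

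By level, the members were of moderate abundance. Median normalized counts, which are read counts divided by a library size factor and not by length, were 71.9 in Sedum plumbizincicola roots and 20.9 in its shoots, and 127 in Sedum alfredii shoots and 51.9 in its roots. Together the members held between 0.0893% and 1.58% of a library's assigned reads. All 4 root libraries of Sedum plumbizincicola exceeded all 4 of its shoot libraries in 49 of 53 members (29.3% of the 12832 transcripts did so). Both shoot libraries of Sedum alfredii exceeded both of its root libraries in 40 of 53 (41.4% of the 12832), and both conditions held in 38 (3.41% of the 12832). These counts follow from how the members were chosen. In bulk tissue, fewer cells of a type and less RNA per cell cannot be told apart.

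Set between species, the members differed more evenly in shoots than in roots. Shoot means were lower in Sedum plumbizincicola than in Sedum alfredii for 53 of 53 members, and the median ratio of Sedum alfredii to Sedum plumbizincicola was 6.29. Root means were higher in Sedum plumbizincicola for 35 members and lower for 18, with a median ratio of 1.46 to Sedum alfredii. Only 12 members had root means at least 2-fold higher in Sedum plumbizincicola together with shoot means at least 2-fold higher in Sedum alfredii. These too are descriptions of values that chose the members. The shares of all transcripts with such species differences are not given, so the counts are not read as particular to the members.

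**Figure D2:**
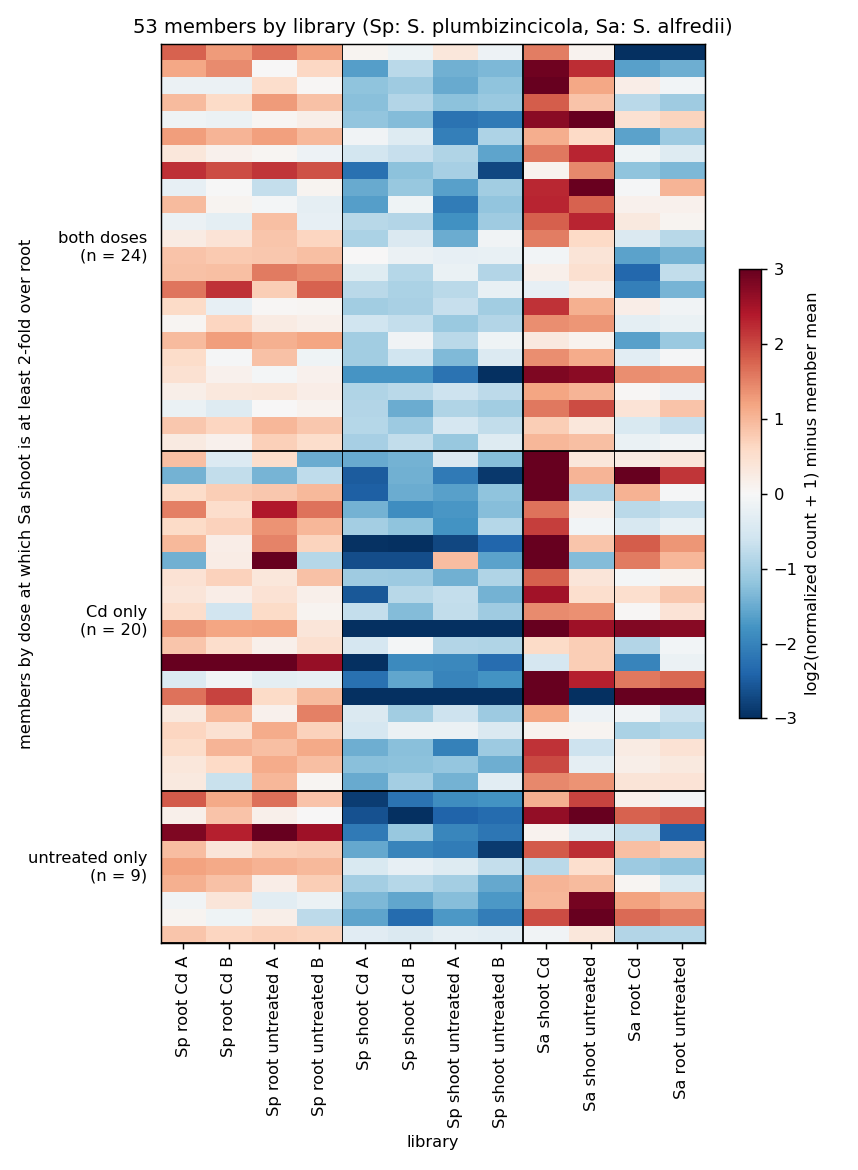
The 53 members (rows) in the 12 libraries (columns: Sp, Sedum plumbizincicola; Sa, Sedum alfredii), coloured by log2(normalized count + 1) minus the member's mean, with colours capped at 3 in either direction. Rows are grouped by the dose at which the Sedum alfredii shoot was at least 2-fold above the root; the Sedum plumbizincicola columns look alike at both doses, whereas the Sedum alfredii shoot with Cd stands out in many of the 20 members of the middle group.

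The 4 members with the highest smaller ratio show the pattern in full. The highest was that of c26472_g1, a transcript of 592 bases. In Sedum plumbizincicola roots it had normalized counts of 33.0 and 39.5 with Cd and 14.1 and 22.4 untreated, and in the shoots 3.81 and 7.59 with Cd and 4.61 and 4.95 untreated. In Sedum alfredii it had 114 with Cd and 69.0 untreated in shoots, and 3.88 with Cd and 4.53 untreated in roots. No root library overlapped a shoot library in either species. Its ratios were 5.2 for root over shoot in Sedum plumbizincicola and 21.7 for shoot over root in Sedum alfredii, on few reads in the lower organ of each.

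The second, c35781_g2, had 294 and 248 with Cd and 283 and 238 untreated in Sedum plumbizincicola roots, against 12.7 and 26.6 with Cd and 31.1 and 8.67 untreated in its shoots. Sedum alfredii shoots had 67.5 with Cd and 174 untreated, and its roots 26.7 with Cd and 24.4 untreated. The ratios were 13.5 in Sedum plumbizincicola and 4.72 in Sedum alfredii, and neither species' organs overlapped at either dose.

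The most abundant of these 4 was c41766_g1. Its Sedum plumbizincicola root libraries had 2053 and 1581 with Cd and 2575 and 1945 untreated, against 448 and 580 with Cd and 450 and 494 untreated in shoots. Sedum alfredii had 3747 with Cd and 1932 untreated in shoots, and 607 with Cd and 506 untreated in roots. Its opposition was clear at both doses, with ratios of 4.13 in Sedum plumbizincicola and 5.10 in Sedum alfredii.

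The remaining member, c29707_g1, behaved differently in Sedum alfredii. In Sedum plumbizincicola it had 128 and 146 with Cd and 154 and 171 untreated in roots, against 15.2 and 30.3 with Cd and 27.6 and 37.1 untreated in shoots. Sedum alfredii shoots had 1087 with Cd and 45.4 untreated, and its roots 182 with Cd and 84.4 untreated. The shoot was thus above the root with Cd, by 5.97-fold, and below it untreated, at a ratio of 0.539. Its mean ratio over the doses, 4.25, came from the Cd-treated shoot library.

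**Figure D3:**
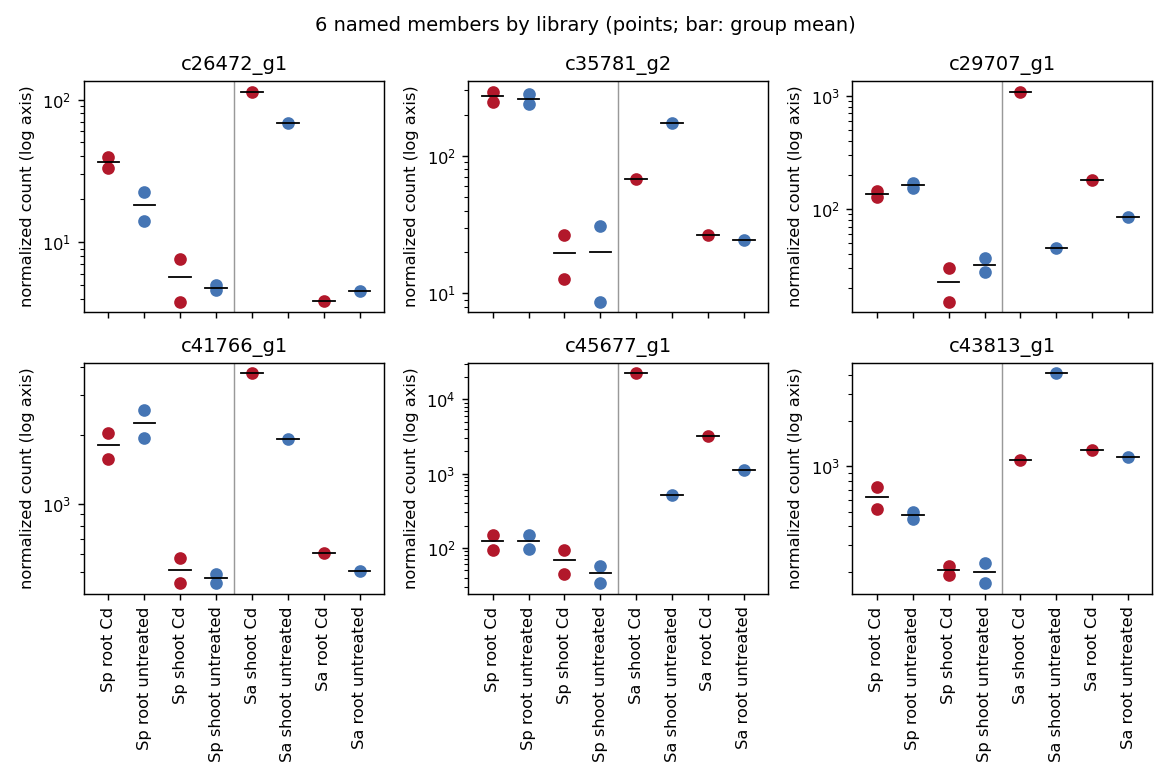
Normalized counts (log axes, a separate range per panel) of 6 members in each library: points are libraries (red with Cd, blue untreated), bars are group means, Sp is Sedum plumbizincicola and Sa is Sedum alfredii. Sp roots lie above Sp shoots in every library shown, whereas Sa shoots lie above Sa roots at both doses in c26472_g1, c35781_g2 and c41766_g1, with Cd alone in c29707_g1 and c45677_g1, and untreated alone in c43813_g1.

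The members were next divided by the dose at which the 2-fold preference held. The Sedum alfredii shoot was at least 2-fold above the root at both doses in 24 members, with Cd alone in 20 and untreated alone in 9. In 10 of the 20 the untreated shoot was below the untreated root, and in 1 of the 9 the Cd-treated shoot was below the Cd-treated root. Median shoot-over-root ratios in Sedum alfredii were 3.32 with Cd and 2.32 untreated. In Sedum plumbizincicola, whose ratios are of means of 2 libraries, the root was at least 2-fold above the shoot at both doses in 41 members, with Cd alone in 4 and untreated alone in 8, with medians of 3.12 with Cd and 3.25 untreated, and lowest values of 1.55 with Cd and 1.56 untreated. The averaged rule admits a Sedum alfredii transcript with a large ratio at 1 dose and none at the other, so this division describes what the rule let in. Sedum alfredii ratios are of single libraries, and the difference between the species in this division was not tested.

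**Figure D4:**
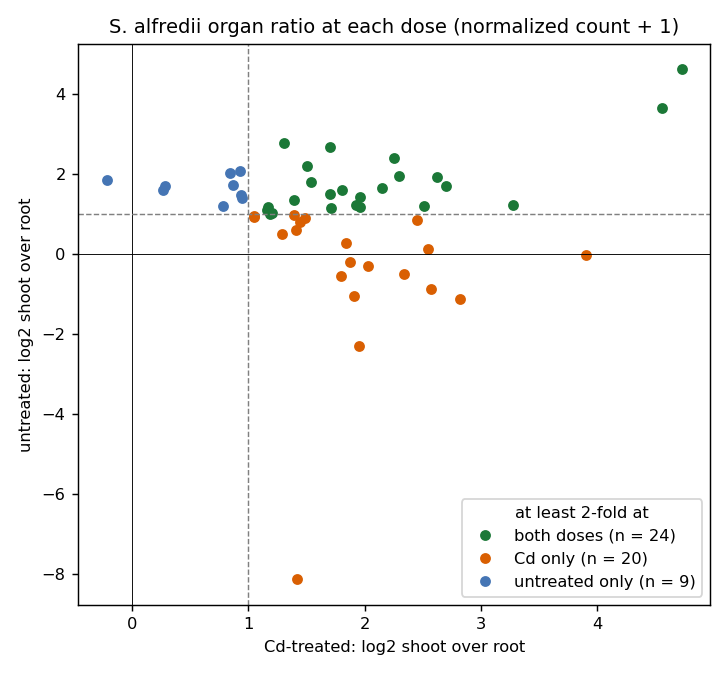
Log2 ratio of shoot to root in Sedum alfredii with Cd (horizontal axis) and untreated (vertical axis) for the 53 members, from normalized counts plus 1; each point rests on 1 library per organ and dose, and dashed lines mark 2-fold. The 24 members past 2-fold at both doses lie in the upper right corner, and the 20 past it with Cd alone extend to the right below the horizontal dashed line.

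Because each dose has its own libraries, the choice could be made at 1 dose and the organ contrast read at the other. The rule applied to untreated libraries alone chose 49 transcripts, 28 of them among the 53. In the Cd-treated Sedum plumbizincicola libraries, 48 of them could be tested and 34 were called higher in roots than shoots by edgeR's quasi-likelihood test at an adjusted p of 0.05. That is 70.8% of those tested, against 25.7% of all 17757 transcripts tested, with a median log2 difference of 1.19. The root mean was at least 2-fold above the shoot mean in 30 of the 49. In Cd-treated Sedum alfredii, 27 of the 49 (55.1%) were at least 2-fold higher in the shoot, against 22.8% of the 12832, and 44 were higher by any amount. Both 2-fold preferences recurred together in 15 of the 49, or 30.6%, against 0.444% of the 12832. The choice used the same organ contrasts at the other dose, so shares above those of all transcripts largely follow from it. They describe how often a preference recurred, and no share for other root-biased transcripts is given. Without Sedum plumbizincicola root library A with Cd, 22 were called in place of 34.

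A single transcript of these 49, c42128_g2, was called in the opposite direction in the Cd-treated Sedum plumbizincicola libraries; it is not among the 53 and is named after its values were seen. Its roots had 121 and 129 with Cd and 788 and 563 untreated. Its shoots had 227 and 238 with Cd and 281 and 255 untreated. Root was below shoot with Cd, with a log2 root-over-shoot difference of -0.84 (SE 0.22, adjusted p = 0.00244, edgeR).

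The reverse choice, from Cd-treated libraries alone, gave 61 transcripts, 35 of them among the 53. All 61 could be tested in untreated Sedum plumbizincicola, where edgeR called 49 (80.3%) higher in roots, against 26.9% of the 18788 tested, and 0 lower. Their median log2 difference was 1.58, and in 46 of the 61 the root mean was at least 2-fold above the shoot mean. In untreated Sedum alfredii, 23 of the 61 (37.7%) were at least 2-fold higher in the shoot, against 24.2% of the 12832, and 43 were higher by any amount. Both preferences recurred together in 18, or 29.5%, against 0.374% of the 12832. These shares too largely follow from the choice at the other dose. The Sedum plumbizincicola shares come from a test with replicates and the Sedum alfredii shares from a 2-fold limit without them, so the species' shares are not set against each other.

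How library sizes are scaled changes the Sedum alfredii side. By the deposited TPM, which divide by length and by the sum over all transcripts, both directions held in 53 of 53 members, yet the Sedum alfredii shoot was at least 2-fold above the root in only 12, while the Sedum plumbizincicola root kept its 2-fold excess in 53. Against size factors, TPM shifted the median log2 ratio of root to shoot over the transcripts above the minimum by 0.95 in Sedum alfredii and 0.29 in Sedum plumbizincicola. With TMM factors the shifts were 0.09 and 0.06 in the same order, both directions held in 53, and 43 members kept 2-fold in Sedum alfredii. The 100 most abundant transcripts took 13.5% to 26.0% of assigned reads in root libraries and 24.1% to 38.7% in shoot libraries.

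The Cd response of the members was then read in Sedum plumbizincicola. The rule averaged the doses and did not sort members by the direction of this response, but it used the same 8 libraries, and a single high library can bring a transcript in. In Sedum plumbizincicola roots 0 of 53 members were called changed with Cd by edgeR, against 2.08% of all 19935 transcripts tested, most of which fell. At an unadjusted p of 0.05, 5 members passed, against 6.68% of all; DESeq2 and limma on log2(TPM + 1) also called 0. The median log2 change of the members was -0.01, beside 0 for all transcripts, and 51 of 53 estimates lay within 2-fold, beside 92.2% of all.

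Among members with at least 100 reads, the highest estimate in roots was that of c31686_g1. It had 60.3 and 79.0 with Cd and 28.3 and 37.0 untreated in Sedum plumbizincicola roots, 2 libraries each that did not overlap, for a log2 change of 1.07 (SE 0.33, adjusted p = 0.192, edgeR). Its counts were 0 in all 4 Sedum plumbizincicola shoot libraries, so its root was at least 55.5-fold higher, taking 3 counts over the 4 shoot libraries as the limit. The lowest estimate was that of c38981_g1, with 4.31 and 15.8 with Cd and 143 and 6.95 untreated in roots. The single untreated library A carried that difference: the log2 change was -2.67 (SE 1.63, adjusted p = 0.936, edgeR), it was 0.58 without untreated library A, and it passed the test without untreated library B. The shoot library of the same letter was also the highest, with 1.27 and 1.26 with Cd and 26.5 and 3.71 untreated, so its place among the members also rests on few libraries.

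In Sedum plumbizincicola shoots, edgeR called 0 members and 0% of the 19935 transcripts for Cd. Unadjusted, 2 members had a p under 0.05, against 2.35% of all; DESeq2 called 1 transcript in all and limma 0, with no member among them. The median log2 change was -0.04, beside -0.008 for all transcripts, and 50 of 53 members lay within 2-fold, beside 95.4% of all. These 50 include c31686_g1, which had 0 counts in every Sedum plumbizincicola shoot library. Of members with at least 100 reads, c40384_g2 had the lowest change, with 184 and 196 with Cd and 390 and 215 untreated (log2 -0.70, SE 0.83, adjusted p = 1, edgeR). The highest was c45677_g1, with 44.4 and 93.6 with Cd and 57.6 and 33.4 untreated (log2 0.57, SE 0.41, adjusted p = 1, edgeR), whose doses overlapped.

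The difference of the Cd response of roots from that of shoots, within Sedum plumbizincicola, was likewise called by edgeR in 0 members and in 0% of all transcripts. An unadjusted p under 0.05 was found for 2 members, against 2.65% of all; DESeq2 called 1 transcript and limma 306, of which 0 were members. The lowest and highest differences, root minus shoot, were those of c29499_g1 (log2 -1.27, SE 0.56) and c38410_g1 (log2 1.41, SE 0.87), both with an adjusted p of 0.9999 (edgeR).

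**Figure D5:**
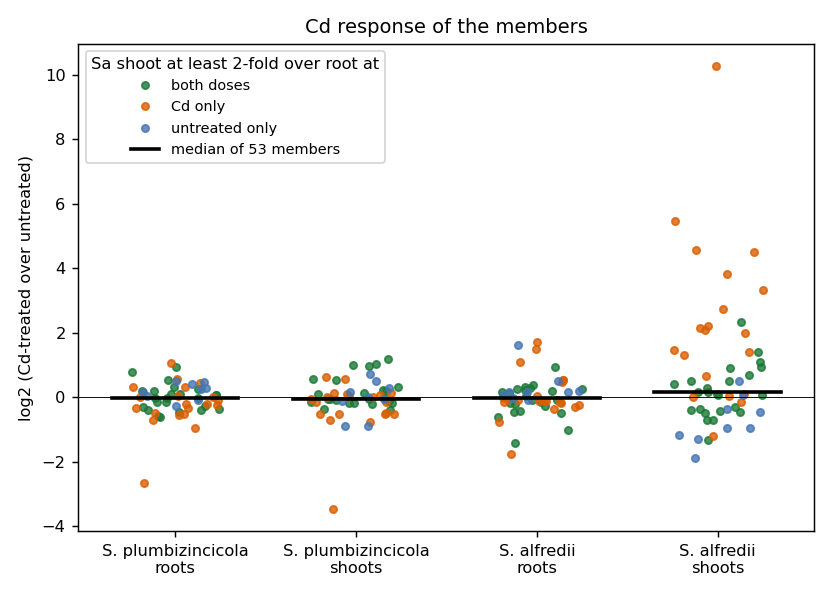
Log2 change with Cd of the members (points) in roots and shoots of each species, as edgeR estimates for Sedum plumbizincicola and as ratios of single libraries with 2 added to each normalized count for Sedum alfredii (2 of 53 members had too few reads in its roots for the counts in the text); black bars are medians and colours give the dose at which the Sedum alfredii shoot was at least 2-fold above the root. Points cluster near 0 in Sedum plumbizincicola and spread widely in Sedum alfredii shoots, up to 10.27.

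In Sedum alfredii the Cd change of the members was read from 1 library per dose with no test. In roots, 51 members had at least 10 reads in a library; 0 were at least 4-fold higher with Cd (0.355% of the 23652 transcripts measured) and 0 at least 4-fold lower (0.638%). At a 2-fold limit, 4 were higher in roots (3.89% of all measured) and 3 lower (3.68%). Their log2 ratios had a median of -0.02 and ranged from -1.76 to 1.72 over the 51 members. In shoots, 11 of 53 were at least 4-fold higher with Cd, against 1.39% of the 18679 measured, and 0 were at least 4-fold lower, against 0.557%. Of these 11, 10 belonged to the 20 members with shoot preference under Cd alone. Since the rule averaged the doses, it favours transcripts with 1 very high Sedum alfredii shoot library, and the share of 11 in 53 is read only as a description.

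The 3 groups by dose of shoot preference were cut from the same Sedum alfredii shoot and root libraries. The order of their shoot medians is therefore favoured by the cut and is no separate result. In Sedum alfredii shoots the median log2 ratio of Cd to untreated was 2.05 in the 20 members with Cd-only preference, 0.13 in the 24 with preference at both doses and -0.94 in the 9 with untreated-only preference. In Sedum alfredii roots the medians were -0.11, -0.04 and 0.16 in the same order. In Sedum plumbizincicola roots the medians of the same groups were -0.22, -0.01 and 0.27, and in its shoots -0.11, -0.02 and 0.01.

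The largest of these changes was that of c31686_g1, which had no reads in Sedum plumbizincicola shoots. Sedum alfredii shoots had 2674 reads with Cd and 0 untreated, or 2474 and 0 normalized counts, at least 1016-fold higher with Cd when 3 counts are taken as the limit of the untreated library. Its roots had 924 with Cd and 279 untreated, 3.32-fold higher (exact 95% counting interval 3.00 to 3.67). This was also the highest root change among members with at least 100 reads, so the transcript was higher with Cd in every organ in which it was detected, without passing the test in Sedum plumbizincicola roots.

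The highest mean over all libraries among the members belonged to c45677_g1, and it rested on Sedum alfredii with Cd. Its shoots had 22574 with Cd and 512 untreated, 44.1-fold higher (exact counting interval 40.7 to 47.8), and its roots 3187 with Cd and 1123 untreated, 2.84-fold higher. Untreated, the Sedum alfredii shoot lay below the root, at a ratio of 0.456. Sedum plumbizincicola had 94.7 and 151 with Cd and 95.9 and 149 untreated in roots, a level far under that of either Sedum alfredii organ. For c40384_g2, Sedum alfredii shoots had 9330 with Cd and 662 untreated, 14.1-fold higher (13.1 to 15.2), and roots 624 with Cd and 673 untreated.

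Other members moved the opposite way. The lowest in Sedum alfredii shoots was c43813_g1, with 1107 with Cd and 4125 untreated, a ratio of 0.268 (exact counting interval 0.252 to 0.286), while the roots had 1286 with Cd and 1150 untreated. Its Sedum plumbizincicola roots had 518 and 724 with Cd and 451 and 496 untreated, above 220 and 190 with Cd and 230 and 168 untreated in shoots. In Sedum alfredii roots the lowest was c35770_g1, with 15.5 with Cd and 57.2 untreated, a ratio of 0.272 (0.177 to 0.408). In Sedum plumbizincicola this transcript had 564 and 563 with Cd and 520 and 401 untreated in roots, against 3.81 and 16.4 with Cd and 16.1 and 12.4 untreated in shoots, the highest finite root-over-shoot ratio of the members.

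Whether the Cd response differs between the species was tested directly, in 1 edgeR fit of all 12 libraries in which each Sedum alfredii library is assumed to vary like the replicated Sedum plumbizincicola groups. In roots 0 of 53 members were called, against 0.0224% of the 26730 transcripts tested; 5 members had an unadjusted p under 0.05, against 2.80% of all. The highest difference, Sedum plumbizincicola minus Sedum alfredii, was that of c35770_g1 (log2 2.16, SE 0.49, adjusted p = 0.417, edgeR). DESeq2 called this 1 member, and edgeR called it when Sedum plumbizincicola untreated root library A was left out. The lowest was that of c38981_g1 (log2 -3.25, SE 2.64), the transcript carried by a single library.

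In shoots 8 of 53 members (15.1%) were called. For 7 the Cd change was lower in Sedum plumbizincicola than in Sedum alfredii, a direction called in 0.337% of all 26730 transcripts, and for 1 it was higher, a direction called in 0.183%. The median difference of the members was log2 -0.28, beside 0 for all, and 28 of 53 lay within 2-fold, beside 76.9% of all. By edgeR, c31686_g1 had no usable estimate (SE 16991), as its counts were 0 in all Sedum plumbizincicola shoot libraries. DESeq2 called 9 members, this transcript and the same 8. Among the 8 called members, the lowest differences were those of c29707_g1 (log2 -5.11, SE 0.48, adjusted p = 9.21e-06, edgeR) and c45677_g1 (log2 -4.90, SE 0.61, adjusted p = 0.000954, edgeR), whose values by library are given above; the first was 23.9-fold higher with Cd in Sedum alfredii shoots (exact counting interval 18.3 to 31.9). The member with a higher change in Sedum plumbizincicola was c43813_g1 (log2 1.90, SE 0.40, adjusted p = 0.0246, edgeR). The choice of the members favours large dose differences in Sedum alfredii shoots, so these calls are not independent of it. The count was 2 without Sedum plumbizincicola shoot library A with Cd, 4 without B with Cd and 3 without untreated B, and c43813_g1 lost its call in each of these cases.

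Properties that the rule did not use are given as a description, with no test. Deposited lengths had a median of 1147 bases (quartiles 815 and 1663), against 1400 (964 and 1978) for the transcripts above the minimum. Several isoforms were listed for 51 of 53 members (96.2%), against 92.0%, with a median of 4 isoforms in each. The isoform-weighted length differed more than 1.1-fold between species in 26 of the 51 members with several isoforms (51.0%), against 54.2%, and more than 1.5-fold in 6 (11.8%), against 14.2%. The widest gap was in c38410_g1, with 2622 bases in Sedum plumbizincicola and 915 in Sedum alfredii, so a different isoform mix was counted under 1 ID there. Estimated counts that were not whole, a mark of reads divided between clusters, occurred in 2 of 53 members (3.77%), against 4.51%.

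Many members had a relative in the assembly. The 53 came from 50 components of the assembly, as their IDs number them; 3 components held 2 members each. A further cluster or fellow member was present in the component of 29 members (54.7%, against 47.0% of the transcripts above the minimum), while 24 were alone. Of the 40 other clusters in these components, 30 were under the minimum level in at least 1 species and 10 were above it in both. Some of the 30 were abundant in the other species. For example, c45677_g2, named after its values were seen, had a mean of 982 in Sedum alfredii shoots and 0.309 in Sedum plumbizincicola shoots. Among the 10, 5 were higher in roots of both species, 3 higher in shoots of both and 2 neither, and 9 had the same direction in both species.

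In the 10 components with another cluster above the minimum in both species, the opposition was mostly gone when all clusters of the component were summed. There, 0 sums kept both 2-fold preferences and 3 kept both directions. As 9 of the 10 added clusters had the same direction in both species, the loss is favoured by which components were summed. Sums of the other components are not given, so it describes these 10 alone and not the members in general. Of the 53 members, 24 were alone in their component. A pair of components that lost the opposition, named after their values were seen, is given as an example. Beside c43813_g1 stood c43813_g2, with mean normalized counts of 145 in Sedum plumbizincicola roots and 25.3 in its shoots, and 998 in Sedum alfredii shoots and 2967 in its roots. The sum of both was 693 in roots and 227 in shoots of Sedum plumbizincicola, and 3614 in shoots and 4185 in roots of Sedum alfredii, so Sedum alfredii no longer favoured the shoot. Beside c42710_g4, which held the highest Sedum alfredii ratio, stood c42710_g7, with 7.91 in Sedum plumbizincicola roots and 144 in its shoots, and 320 in Sedum alfredii shoots and 38.6 in its roots. That component summed to 108 in roots and 239 in shoots of Sedum plumbizincicola, and to 390 in shoots and 40.4 in roots of Sedum alfredii, a shoot preference in both species. Whether the species differ in which copy their reads aligned to was not tested, and levels of clusters in a shared component are uncertain. None of these components held a transcript with the reverse opposition.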

How the data were processed

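The 12 libraries of roots and shoots are Illumina RNA-seq, per the labels; a 454 library of pooled organs was left out. FastQC, Bowtie and RSEM are named in the submitters' processing notes; versions, build and assembly steps are not given in the sources used here. The tables hold expected counts, TPM, FPKM and lengths of each cluster, per the file headers. The deposited expected counts were exactly whole in 98.7% to 99.4% of values above 0 and were rounded before testing. The deposited TPM entered alternatives, and the deposited FPKM were not used. Lengths in bases are isoform-weighted and were deposited by the authors as other columns of the same tables.

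Normalized counts are expected counts divided by median-of-ratios size factors from 10144 clusters with at least 10 counts in all 12 libraries. The members, lists and named IDs were chosen with earlier results of these data known. Models were fitted with edgeR 4.0.16 (R 4.3.3; filterByExpr, TMM, robust quasi-likelihood F-test, two-sided, Benjamini-Hochberg, threshold 0.05), by group: 8 Sedum plumbizincicola libraries (4 residual degrees of freedom, biological coefficient of variation 0.178) or all 12 in 8 groups (4 residual degrees of freedom, all from Sedum plumbizincicola). The tests across doses were separate fits of the 4 Sedum plumbizincicola libraries of 1 dose, with 2 residual degrees of freedom. Their biological coefficient of variation was 0.154 with Cd and 0.192 untreated. The SE printed beside an edgeR estimate is the absolute log2 estimate divided by the square root of its F statistic. It is not an output of edgeR and is unstable where that statistic is near 0. The scripts were tested on simulated data. DESeq2 1.42.0 and limma 3.58.1 on log2(TPM + 1) were alternatives. Sedum alfredii ratios added a prior count of 2 and needed at least 10 reads in 1 library; exact 95% intervals and the limit of 3 counts for a count of 0 cover counting error only. The spread between replicates A and B exceeded sampling noise in each group (chi-square over its degrees of freedom 3.11 to 14.6), and p-values measure the spread between these libraries. The IDs named are the 4 members with the highest smaller ratio, the 2 with the highest mean, those beside the limit, and per Cd comparison the highest and lowest called, or where none was called, the highest and lowest with at least 100 reads, with other IDs said to be named after their values were seen.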

Additional observations from a re-analysis of the deposited data

Results flagged for a closer look

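The Cd response in shoots was called as differing between the species by edgeR's interaction test in 8 members, and in 2 to 4 when either Cd-treated shoot library or untreated shoot library B of Sedum plumbizincicola was left out; c43813_g1 lost its call in each case. The log2 difference, Sedum plumbizincicola minus Sedum alfredii, was -5.11 for c29707_g1, -4.90 for c45677_g1 and 1.90 for c43813_g1. The members were chosen on the same Sedum alfredii shoot libraries, 1 per dose, by a rule that favours large dose differences there, so these calls are a description and no independent support.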

How the results depend on the processing

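The number of members moved with the rule: 20 by TPM organ ratios (12 shared with the 53), 13 at 3-fold, 4 at 4-fold, 32 with a minimum of 50, 103 with a minimum of 5, and 6 when every root library had to differ 2-fold from every shoot library. TMM factors gave 48 (43 shared). Leaving out 1 library gave 40 to 70, the lowest without the Sedum alfredii shoot with Cd (35 shared) and the highest without the untreated shoot (46 shared). For Cd in Sedum plumbizincicola roots, leaving out 1 library gave 0 to 1 members. For the species difference it gave 0 to 1 in roots, where DESeq2 gave 1, and 2 to 10 in shoots, where at least 10 reads in every library gave 5. Transcripts chosen untreated and called with Cd numbered 22 to 29 without 1 library. Those chosen with Cd and called untreated numbered 41 to 47, and 28 with at least 10 reads in every library. With DESeq2 these tests called 25 of 48 in place of 34, and 34 of 61 in place of 49. Over all transcripts DESeq2 called 3087 higher in roots in place of 4555 with Cd, and 3574 in place of 5056 untreated. In Sedum alfredii, a 2-fold limit gave 7 members in roots and 22 in shoots, and TPM plus 1 gave 1 in roots.

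Letters A and B share only a letter in the labels, and correlations of their deviations between groups were 0.095 to 0.335, so they were not taken as pairs. The replicate block gave 1 member for Cd in roots (c31409_g1, lower), 0 in shoots and 0 for the organ difference, and 35 and 51 in the tests across doses.

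Over all transcripts, Cd in Sedum plumbizincicola roots called 415 by edgeR, 181 by DESeq2, 716 with no filter and 7 with at least 10 reads in every library, and 199 to 406 without 1 library. In shoots, no filter gave 22 and the block 5, against 0. The organ difference gave 12 with no filter, 6 with the block and 306 by limma, against 0. The species difference in shoots gave 139, 74 with at least 10 reads in every library and 69 to 218 without 1 library. TPM shifted the median log2 change of all transcripts in roots by 0.16. For c43813_g1 in shoots the adjusted p by edgeR lay between 0.0067 and 0.147 without 1 library. The cause was not tested for these changes. Depth limits the members with few reads in their lower organ, and 1 library per Sedum alfredii group leaves its spread unmeasured.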
